A study of Homo sapiens with 12 samples.

Results

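The EZH2 A677G line was compared with the EZH2 WT line by RNA-Seq. The comparison used the 3 A677G and the 3 WT samples, 6 of the 12 in the series, as the labels name them, and 14263 of the 14438 genes in the table. HEK293T is a human embryonic kidney cell line that carries the large T antigen, which binds p53 and the retinoblastoma protein. Each line was made by infecting HEK293T with lentivirus from a pDEST40 vector that held EZH2 WT or EZH2 with the A677G change, followed by blasticidin selection. The 2 further lines made the same way, EZH2 Y641F and the loss-of-function (LOF) double mutant EZH2 H689A/F667I, were used as points of reference, with 3 samples each. All lines kept their own endogenous EZH2 beside the introduced copy, so the WT line is an expression control and not an uninfected one. The study's methods describe the selected populations as monoclonal, and with 1 line per genotype an effect of the mutation and a difference between clones cannot be told apart. The labels give a replicate number and do not say whether replicates were separate cultures, so p-values measure the spread between these samples, which may be technical. RNA came from bulk cultures, where fewer cells of a type and less RNA per cell cannot be told apart.

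EZH2 is the catalytic subunit of Polycomb repressive complex 2 (PRC2), which places methyl groups on lysine 27 of histone H3. The trimethyl mark, H3K27me3, is found at promoters of silent developmental genes and is read by Polycomb repressive complex 1 (PRC1). The A677G change in the SET domain is known from lymphoma as a gain-of-function (GOF) change, and cells that carry it have more H3K27me3. Genes known to carry the mark include transcription factors of development, cell surface receptors and genes of the neuronal synapse.

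Counts summed to between 32765377 and 38630251 in the WT samples and between 36794751 and 44562413 in the A677G samples. A group of 134 genes had a count of 0 in every A677G sample, while 0 genes had it in exactly 2 of the 3. Their mean level in WT had a median of 0.379 CPM (counts scaled to the library total, here without TMM factors) and reached at most 0.813 CPM. All other CPM are TMM-normalized. These genes and those at 0 in all LOF samples, 175 in all, were left out, and their zeros were not taken as measurements. Of 8 marker genes of HEK293T, 7 were tested, led by VIM, and their summed level was 733 to 759 CPM in WT and 569 to 608 CPM in A677G, with 3 members lower and 1 higher. The marker PAX2 was one of the genes at 0 in all A677G samples. Markers of other cell types were few. Of the blood cell markers, PTPRC, MS4A1, CD3E and LYZ were not listed. Of the endothelial markers KDR alone was listed, under 1 CPM in every sample of both lines. Among fibroblast markers, 4 of 7 were listed, with a sum of 11.7 to 13.3 CPM in WT and 13.6 to 14.9 CPM in A677G. The differentiated kidney markers were represented by LRP2, at 22.0 to 25.4 CPM in WT and 16.7 to 19.3 CPM in A677G.

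EZH2 itself (ENSG00000106462.12, chr7:148807257-148884321 on GRCh38) was counted without telling the introduced from the endogenous transcript. The level was 157, 163 and 154 CPM in the 3 WT samples and 174, 165 and 182 CPM in the 3 A677G samples. The lowest A677G sample was above the highest WT sample by less than the range of either group. The log2 fold change was 0.13 (standard error 0.0401, adjusted p = 0.0294 by the quasi-likelihood test of edgeR). Here and below, p-values were adjusted over all genes by the method of Benjamini and Hochberg. The change in EZH2 was past the threshold in 10 of 19 alternative fits. The 10 include the fit without a filter on low counts, which repeated the main fit. In Y641F and in the LOF line EZH2 was higher, with means of 218 and 208 CPM, and A677G was below both when tested directly (log2 fold change -0.33, adjusted p = 9.34e-06 against Y641F, and -0.26, adjusted p = 1.09e-05 against the LOF line). The counts were not split by allele, so the A677G change itself was not checked in the RNA.

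More genes fell than rose. In A677G, 924 genes were lower than in WT (6.48% of the genes tested) and 295 were higher (2.07%), a share of 75.8% for the lower genes (Wilson 95% confidence interval 73.3 to 78.1, which covers counting error only). The lower genes had a median log2 fold change of -0.58 with quartiles at -0.92 and -0.34, and the higher genes had a median of 0.21 with quartiles at 0.16 and 0.28. These medians are over genes of different expression level. In 5 groups of about equal size by mean CPM, from the lowest to the highest, the medians were -1.15, -0.59, -0.33, -0.24 and -0.18 for the lower genes and 0.95, 0.42, 0.27, 0.18 and 0.15 for the higher genes, so that within a group the falls and rises differed less in size than over all changed genes. The group of lowest CPM held 254 of the lower genes and 11 of the higher ones. A log2 fold change of -1 or less was seen in 202 lower genes (1.42%), and 4 higher genes reached 1 or more (0.028%). The median over all genes tested was 0.00. At an unadjusted p under 0.05, 1751 genes were lower (12.3%) and 1160 higher (8.13%), and in 2091 genes (14.7%) the A677G samples all lay below the WT samples and in 1789 (12.5%) all above. Both counts fell whichever sample was left out, in fits that hold fewer samples. Lower genes then numbered 682 to 812. Higher genes numbered 148, 142 and 230 without WT replicates 1, 2 and 3. They numbered 153, 173 and 163 without A677G replicates 1, 2 and 3. With upper-quartile factors in place of TMM the changed genes split into 1026 lower and 191 higher.

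**Figure D1:**
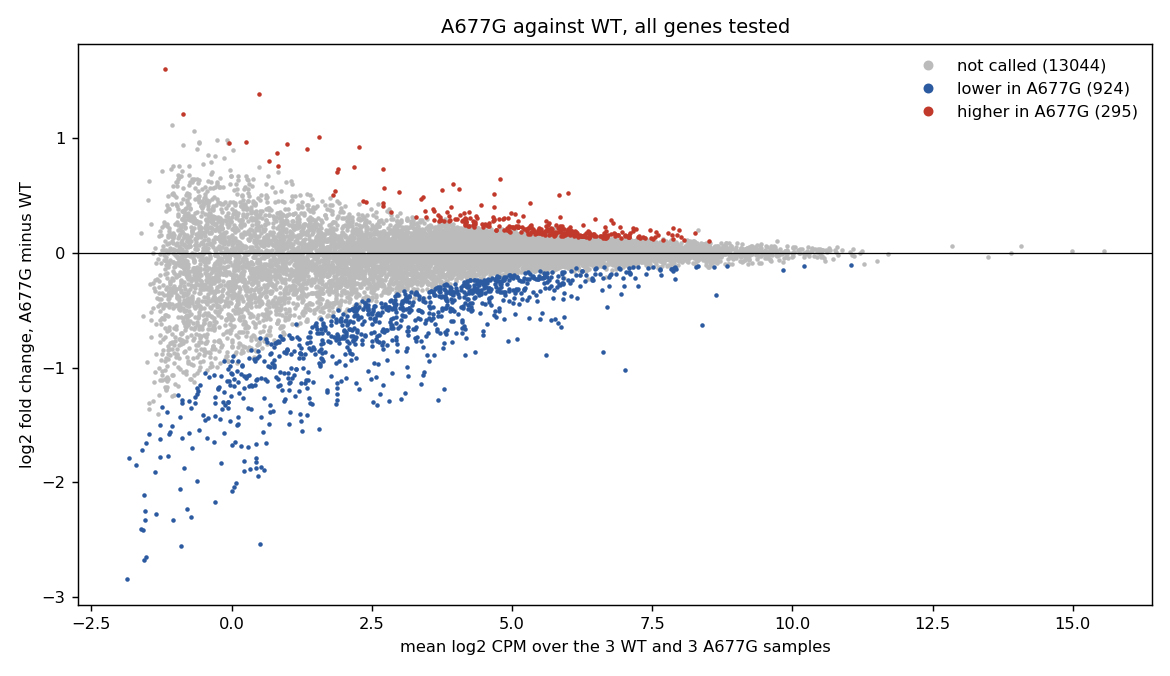
Log2 fold change of A677G against WT (y axis) for each of the 14263 genes tested, against its mean log2 CPM over the 6 samples (x axis). Points for the 924 lower genes extend far below 0, to -2.84, at low and middle levels, while most of the 295 higher genes lie close above 0.

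Where the mean log2 CPM was 1 or more and the 2 lines did not overlap, the 15 largest falls had log2 fold changes between -1.56 and -1.28. CCDC68 (ENSG00000166510.14, chr18:54901509-54959461), a centriole protein, was at 3.92, 3.57 and 4.56 CPM in WT and 1.37, 1.47 and 1.23 CPM in A677G (log2 fold change -1.56, standard error 0.219, adjusted p = 3.58e-06). TENM4 (ENSG00000149256.16, chr11:78652829-79441030) encodes a teneurin, a large transmembrane protein of synapse formation. It was at 4.65, 4.97 and 5.25 CPM in WT and 2.11, 1.67 and 1.32 CPM in A677G (log2 fold change -1.53, standard error 0.204, adjusted p = 1.29e-06). PRKG2 (ENSG00000138669.10, chr4:81087370-81215222), the membrane-bound cGMP-dependent kinase, was at 3.19, 3.16 and 3.71 CPM in WT and 1.41, 0.836 and 1.32 CPM in A677G (log2 fold change -1.49, standard error 0.232, adjusted p = 1.84e-05). In each of these genes every A677G sample lay under every WT sample by a wide margin. SLC9A2 (ENSG00000115616.3, chr2:102619553-102711355), a sodium-proton exchanger of the plasma membrane, was at 4.06, 4.63 and 3.56 CPM in WT and 1.57, 1.82 and 1.21 CPM in A677G (log2 fold change -1.41, standard error 0.212, adjusted p = 1.13e-05).

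Promoter sequences of these genes and of 2 that rose are shown, because CpG-rich promoters are the usual sites of PRC2, and because the windows differ widely in CpG content. Each is the RefSeq window of 300 bases on GRCh38.p14, from 250 bases before to 50 bases after the transcript start, read 5′ to 3′ on the gene's strand, with each CG in capitals.
CCDC68 (chr18:54957999-54958298, minus strand): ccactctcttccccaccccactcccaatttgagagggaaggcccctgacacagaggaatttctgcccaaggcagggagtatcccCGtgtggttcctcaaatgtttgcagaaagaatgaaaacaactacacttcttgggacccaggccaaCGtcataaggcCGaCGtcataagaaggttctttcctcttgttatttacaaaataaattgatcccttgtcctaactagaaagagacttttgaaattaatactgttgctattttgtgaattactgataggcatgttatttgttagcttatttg
TENM4 (chr11:79440981-79441280, minus strand): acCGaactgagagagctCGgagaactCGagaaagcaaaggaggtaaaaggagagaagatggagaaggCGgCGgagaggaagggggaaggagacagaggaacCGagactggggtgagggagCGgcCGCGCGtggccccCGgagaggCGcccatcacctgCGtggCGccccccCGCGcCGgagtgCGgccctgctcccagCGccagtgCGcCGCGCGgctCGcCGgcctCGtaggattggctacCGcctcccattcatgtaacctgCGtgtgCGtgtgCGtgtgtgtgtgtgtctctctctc
PRKG2 (chr4:81215173-81215472, minus strand): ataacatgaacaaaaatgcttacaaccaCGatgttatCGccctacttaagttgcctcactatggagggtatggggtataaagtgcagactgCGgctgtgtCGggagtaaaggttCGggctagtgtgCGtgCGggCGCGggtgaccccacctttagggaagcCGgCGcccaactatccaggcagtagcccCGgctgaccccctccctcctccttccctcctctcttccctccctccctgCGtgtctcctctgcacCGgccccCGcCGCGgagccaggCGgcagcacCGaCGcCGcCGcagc
SLC9A2 (chr2:102619303-102619602, plus strand): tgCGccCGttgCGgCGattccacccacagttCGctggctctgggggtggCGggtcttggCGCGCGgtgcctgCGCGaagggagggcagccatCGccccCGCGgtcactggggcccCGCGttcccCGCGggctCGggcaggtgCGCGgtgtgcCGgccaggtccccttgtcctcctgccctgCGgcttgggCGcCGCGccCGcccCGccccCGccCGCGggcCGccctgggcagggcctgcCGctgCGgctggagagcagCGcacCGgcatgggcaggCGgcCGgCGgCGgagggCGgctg
ZNF492 (chr19:22634074-22634373, plus strand): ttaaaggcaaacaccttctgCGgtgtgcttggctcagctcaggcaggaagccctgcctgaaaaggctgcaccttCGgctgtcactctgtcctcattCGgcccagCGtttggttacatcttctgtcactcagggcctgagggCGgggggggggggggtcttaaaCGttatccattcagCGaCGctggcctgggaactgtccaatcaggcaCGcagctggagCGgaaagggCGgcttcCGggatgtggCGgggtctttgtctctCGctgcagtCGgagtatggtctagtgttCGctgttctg
ZNF429 (chr19:21505352-21505651, plus strand): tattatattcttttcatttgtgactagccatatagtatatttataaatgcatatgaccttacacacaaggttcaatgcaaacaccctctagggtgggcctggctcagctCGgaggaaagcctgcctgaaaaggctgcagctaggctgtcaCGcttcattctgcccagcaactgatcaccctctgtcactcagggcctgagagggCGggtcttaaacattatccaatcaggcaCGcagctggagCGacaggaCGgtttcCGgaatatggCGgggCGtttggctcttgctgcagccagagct
The windows of TENM4, PRKG2 and SLC9A2 held 30, 22 and 41 CG, and that of CCDC68 held 4. At the start of the CCDC68 transcript that Ensembl marks as canonical, which is a different one, the window of the same size held 24. The 2 genes that rose, ZNF492 and ZNF429, had 16 and 9. SVEP1, a larger fall than SLC9A2, and COL3A1, a larger rise than ZNF429, had no RefSeq window to print. Their windows at the canonical start held 11 and 3. CG (the same letters on both strands) occurred at least once in 96.0% of 35116 RefSeq promoters of this length and 20 times or more in 41.2%. Among the promoters of the 10435 tested genes with an entry, 99.6% held at least 1 and 72.2% held 20 or more, with a median of 26. A CpG count is a description of the window and not a site of PRC2 binding.

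Among the other large falls, several genes encode receptors and signalling proteins. ADCYAP1R1, the receptor of the neuropeptide PACAP, was at 8.23, 9.47 and 10.7 CPM in WT and 3.68, 3.34 and 4.33 CPM in A677G (log2 fold change -1.32, standard error 0.139, adjusted p = 1.07e-08). PREX2, an exchange factor for the GTPase RAC, was at 11.6, 10.3 and 11.2 CPM in WT and 5.07, 4.99 and 3.37 CPM in A677G (log2 fold change -1.29, standard error 0.125, adjusted p = 1.60e-09). STAC, an adaptor of calcium channels, fell from a mean of 3.73 to 1.42 CPM (log2 fold change -1.40). In PREX2 the A677G samples were more spread than in WT, and none of them reached the lowest WT sample, as the choice required.

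Transcription factors were among the falls as well. RORB, a nuclear receptor of retina and cortex, was at 7.98, 9.24 and 9.71 CPM in WT and 3.59, 3.69 and 3.65 CPM in A677G (log2 fold change -1.30, standard error 0.134, adjusted p = 6.59e-09). IRF8, a transcription factor of myeloid and B cells, was at 4.76, 4.09 and 3.71 CPM in WT and 1.32, 1.77 and 1.97 CPM in A677G (log2 fold change -1.32, standard error 0.195, adjusted p = 8.22e-06). Neither gene overlapped between the lines, as the choice of the largest falls required. Secreted proteins made up much of the rest. SPON1, or spondin 1, an extracellular protein first known from the floor plate, had the highest level of the 15, with 21.1, 18.8 and 19.6 CPM in WT and 8.01, 8.55 and 7.95 CPM in A677G (log2 fold change -1.28, standard error 0.0910, adjusted p = 9.23e-13). SVEP1, SPOCK3 and CHRDL1, a cell adhesion protein, a proteoglycan and an inhibitor of bone morphogenetic proteins (BMP), had log2 fold changes of -1.47, -1.32 and -1.28. CLMP, a junction adhesion molecule, and CYP2J2, a cytochrome P450 of arachidonic acid, had -1.30 and -1.39. All 15 falls were called in each of the 19 alternative fits beside the fold requirement.

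**Figure D2:**
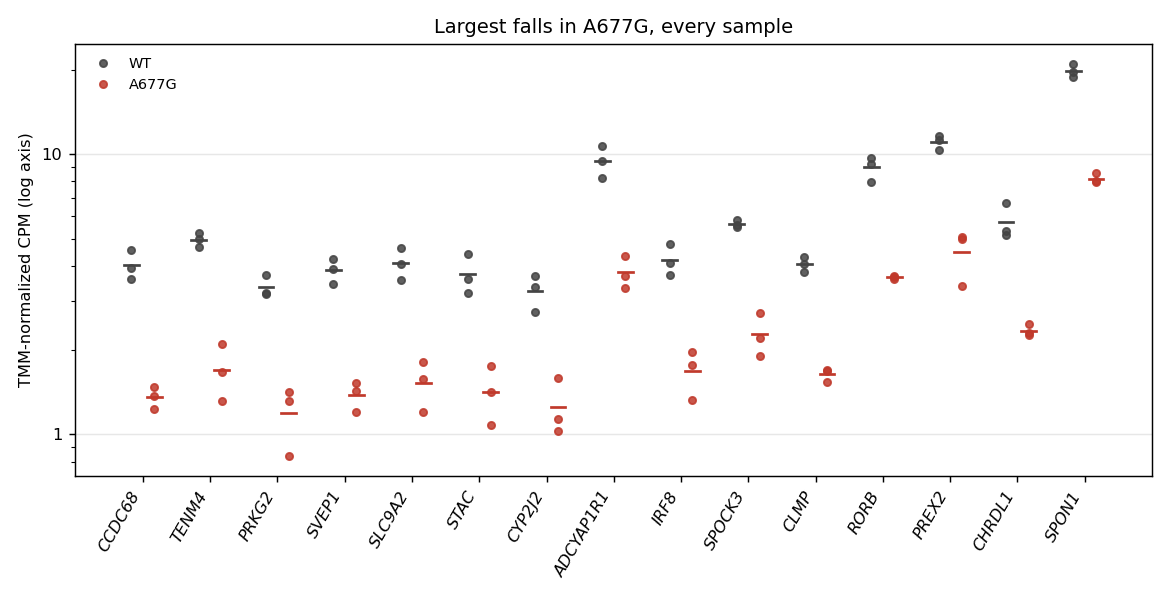
TMM-normalized CPM on a log axis in each of the 3 WT and 3 A677G samples (points, with bars at the means) for the 15 largest falls. In each gene the A677G points lie below the WT points, from 9.47 to 3.78 CPM in the means of ADCYAP1R1 and from 19.8 to 8.17 CPM in those of SPON1. Only genes without overlap between the lines could be chosen.

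The rises were smaller, and 6 of the 15 largest were zinc finger genes. ZNF492 (ENSG00000229676.3, chr19:22634324-22667671) was at 1.68, 2.43 and 2.02 CPM in WT and 3.72, 4.77 and 3.87 CPM in A677G (log2 fold change 1.01, standard error 0.183, adjusted p = 1.81e-04). ZNF429 (ENSG00000197013.11, chr19:21496682-21556270) was at 1.87, 1.76 and 1.84 CPM in WT and 3.59, 3.22 and 3.46 CPM in A677G (log2 fold change 0.91, standard error 0.193, adjusted p = 0.00131). ZNF85, ZNF681, ZNF737 and ZNF493 had log2 fold changes of 0.75, 0.73, 0.71 and 0.53. Genes of this family share repeated zinc finger sequence, and how reads common to several of them were assigned is not given in the sources used here, so single values are uncertain. COL3A1, the chain of type III collagen, was at 3.49, 2.69 and 4.37 CPM in WT and 7.11, 6.41 and 6.39 CPM in A677G (log2 fold change 0.93, standard error 0.165, adjusted p = 1.48e-04). It is also on the fibroblast marker list, whose other tested members did not pass the test in A677G, and the part of such cells in this value was not tested. MDK, the growth factor midkine, was the most abundant of the 15, at 59.9, 52.0 and 48.6 CPM in WT and 76.2, 75.1 and 79.1 CPM in A677G (log2 fold change 0.52, standard error 0.0585, adjusted p = 5.10e-08).

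Of the remaining rises, SKIDA1, a SKI/DACH domain protein, had a log2 fold change of 0.54 (adjusted p = 6.82e-05), and the noncoding LINC00665 had 0.73 (adjusted p = 0.00285), which was lost in 1 of the 19 alternatives. LOC728485 had 0.54 (adjusted p = 0.0391) and was lost in 7 of the 17 that tested it. The 4 higher genes with a log2 fold change of 1 or more were ZNF492, GPR50, PKP3 and GNRHR2. The last 3 were at means of 0.838, 0.221 and 0.328 CPM in WT and 2.22, 0.675 and 0.774 CPM in A677G, at which a value rests on few counts. The call of GNRHR2 was lost in 5 of the 6 fits that left out a sample (all but the one without A677G replicate 2), and that of PKP3 without WT replicate 1.

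**Figure D3:**
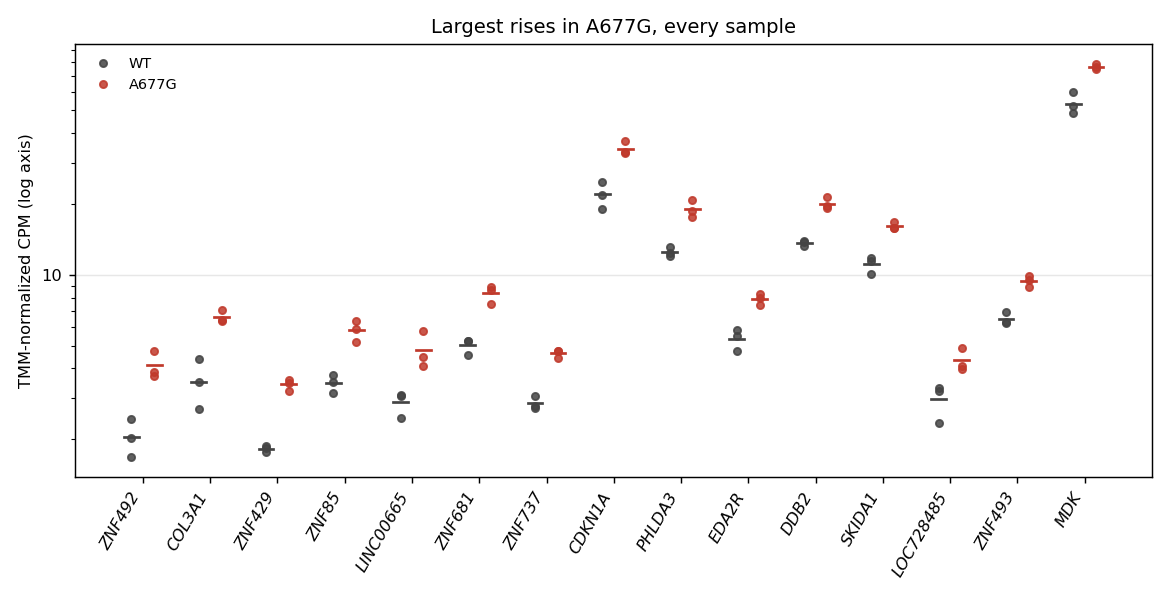
TMM-normalized CPM on a log axis in each of the 3 WT and 3 A677G samples (points, with bars at the means) for the 15 largest rises. The points of the lines lie closer together than in the falls, with means of 2.04 and 4.12 CPM in ZNF492 and of 53.5 and 76.8 CPM in MDK.

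Several of the rises are known targets of p53. CDKN1A, the cell cycle inhibitor p21, was at 24.9, 21.9 and 19.1 CPM in WT and 33.4, 32.9 and 37.0 CPM in A677G (log2 fold change 0.64, standard error 0.0828, adjusted p = 7.06e-07). DDB2, a DNA damage recognition protein, was at 13.3, 13.8 and 13.9 CPM in WT and 19.6, 19.2 and 21.4 CPM in A677G (log2 fold change 0.55, standard error 0.0795, adjusted p = 5.22e-06). RPS27L, a ribosomal protein paralogue induced by p53, was at 31.8, 35.4 and 35.8 CPM in WT and 46.1, 43.3 and 49.5 CPM in A677G (log2 fold change 0.43, standard error 0.0586, adjusted p = 1.96e-06). No sample of one line reached into the range of the other in these 3 genes, as the rule that picked them required. PHLDA3, an inhibitor of AKT, EDA2R, a receptor of the TNF family, and BAX, a pore-forming apoptosis protein, had log2 fold changes of 0.60, 0.57 and 0.31 (adjusted p = 1.02e-04, 0.00769 and 4.99e-05). A list of p53 targets was then drawn up, after these values were seen, and is a description with no test. Of its 32 genes tested, 16 were higher (50%) and 1 lower (3.1%), against 2.07% and 6.48% of all genes tested. The median log2 fold change was 0.18 against 0.00 for all genes. Rises that prompted the list, such as that of CDKN1A, are counted in it. The count of higher members was 8 without WT replicate 2 and 10 without A677G replicate 3.

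The smallest p-values belonged to genes at higher levels. NEFL and NEFM, the light and medium neurofilament chains, which lie next to each other on chromosome 8, were both lower. NEFL (chr8:24950955-24956721) was at 137, 133 and 128 CPM in WT and 74.7, 68.6 and 76.1 CPM in A677G (log2 fold change -0.86, standard error 0.0463, adjusted p = 5.71e-16). NEFM (chr8:24913758-24919098) was at 184, 192 and 178 CPM in WT and 99.2, 81.2 and 92.6 CPM in A677G (log2 fold change -1.02, standard error 0.0636, adjusted p = 1.77e-14). Both are on the list of HEK293T markers. They were the called members among 15 neurofilament and other intermediate filament genes (13.3% lower), of which 0 were higher (1 at an unadjusted p under 0.05). The shares of all genes tested were 6.48% lower and 2.07% higher. DPYSL3, a cytosolic protein of growth cones, fell from 65.1, 66.8 and 67.7 CPM to 34.9, 37.5 and 35.7 CPM (log2 fold change -0.89, standard error 0.0488, adjusted p = 6.91e-16). KCTD12, an auxiliary subunit of GABA-B receptors, fell from 416, 421 and 423 CPM to 278, 262 and 271 CPM (log2 fold change -0.63, standard error 0.0376, adjusted p = 5.14e-15). The distance between the lines was several times the range within either. In the upward direction the smallest p was that of PCDH10, a protocadherin, at 47.7, 49.1 and 48.1 CPM in WT and 68.9, 68.7 and 68.0 CPM in A677G (log2 fold change 0.50, standard error 0.0469, adjusted p = 6.19e-10). PCDH17, of the same family, had a log2 fold change of 0.51 (standard error 0.0706, adjusted p = 2.86e-06).

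**Figure D4:**
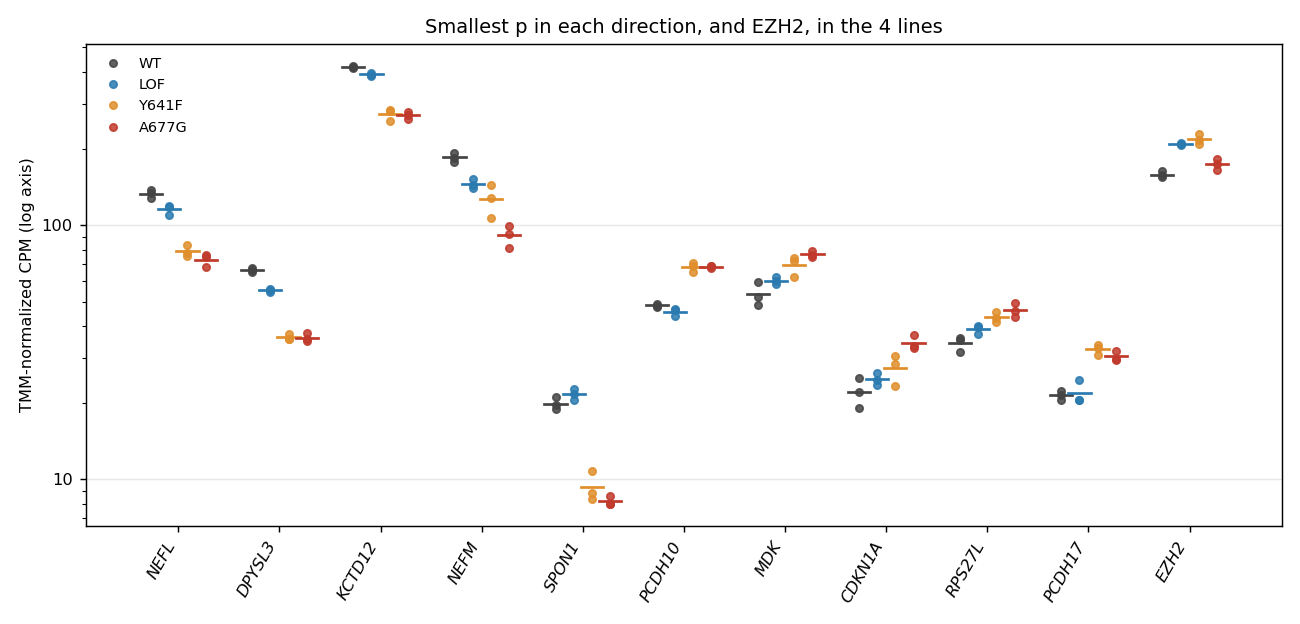
TMM-normalized CPM on a log axis in the 3 samples of each of the 4 lines (points, with bars at the means) for the 5 genes of smallest p in each direction and for EZH2. For NEFL, DPYSL3, KCTD12, SPON1, PCDH10 and PCDH17 the A677G and Y641F points lie together and apart from WT and LOF, while EZH2 was lowest in WT (158 CPM) and next in A677G (173 CPM).

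The gene lists were chosen with earlier results of these data known, so their shares are a description and not a test. Of 14 PRC2 subunits tested, 2 were lower (14.3%) and EZH2 was higher (7.14%), against 6.48% and 2.07% of all genes tested, with a list median of 0.03. C17orf96, now named EPOP, a PRC2 cofactor that binds Elongin, was at 37.6, 36.6 and 38.7 CPM in WT and 30.9, 27.03 and 27.7 CPM in A677G (log2 fold change -0.40, standard error 0.0631, adjusted p = 2.61e-05). RBBP7, a histone-binding subunit, had a log2 fold change of -0.12 (adjusted p = 0.0151), which was lost in 4 of the 19 alternatives. Of 23 PRC1 genes, PCGF5 was lower (-0.27, adjusted p = 2.16e-04) and no other passed the test. Of 13 demethylases, acetyltransferases and methyltransferases that act against H3K27 methylation, 0 passed edgeR's test (1 was lower and 1 higher at an unadjusted p under 0.05), and the most abundant, NSD1 and WHSC1 (NSD2), had log2 fold changes of -0.03 and 0.08. Of 36 HOX genes, the classical targets of Polycomb, HOXA10 was higher (0.16, adjusted p = 0.0422, lost in 8 of the 19 alternatives), and the list median was 0.02.

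Transcription factors of kidney development moved in both directions. Of 26 tested, 5 were lower (19.2%) and 2 higher (7.69%), against 6.48% and 2.07% of all genes tested. The list median was 0.03. Without A677G replicate 1 the lower members were 3. EYA2, a transcriptional coactivator, fell from 10.8, 9.89 and 8.87 CPM to 6.08, 5.80 and 5.87 CPM (log2 fold change -0.74, adjusted p = 8.22e-06), without overlap between the lines. FOXD1, a factor of the kidney stroma, was lower (-0.26) and FOXC1 higher (0.17). POU3F3, a factor of the nephron, was lower (-0.20). In the LOF line POU3F3 was also lower than in WT (-0.24, adjusted p = 0.0155), and FOXD1 had -0.22 there (adjusted p = 0.168). The calls of FOXD1 and FOXC1 were lost in 1 and 2 alternatives.

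Genes of the extracellular matrix and of adhesion to it were often lower. Of 30 collagen chains, 10 were lower and 1 higher, or 33.3% lower against 6.48% of all genes tested, and the median log2 fold change was -0.27 against 0.00. COL4A1 and COL4A2, the main chains of basement membrane collagen, share a bidirectional promoter. COL4A1 was at 39.3, 35.9 and 37.9 CPM in WT and 28.3, 26.6 and 28.6 CPM in A677G (log2 fold change -0.44, adjusted p = 1.04e-05). COL4A2 was at 83.2, 81.1 and 80.6 CPM in WT and 67.1, 67.8 and 65.0 CPM in A677G (-0.29, adjusted p = 6.47e-05). The neighbours fell together and without overlap between lines. COL4A4, another type IV chain, was at 2.03, 1.60 and 1.69 CPM in WT and 0.538, 0.762 and 0.384 CPM in A677G (-1.65, adjusted p = 1.79e-04), and COL25A1, a transmembrane collagen, had -0.39 (adjusted p = 5.13e-05). COL3A1 was the collagen that rose.

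Of 40 laminins, basement membrane proteins and other matrix glycoproteins, 12 were lower (30.0%) and 1 higher (2.5%). The shares of all genes tested were 6.48% and 2.07%, and the list median was -0.21. NID2, nidogen 2, which links laminin to collagen IV, was at 35.5, 35.4 and 36.0 CPM in WT and 22.6, 25.1 and 23.8 CPM in A677G (log2 fold change -0.58, adjusted p = 1.39e-07). FBN2, fibrillin 2 of the microfibrils, fell from 138, 139.8 and 145 CPM to 115, 113 and 118 CPM (-0.29, adjusted p = 1.67e-05), and EFEMP1, a fibulin, fell by 1.08 on the log2 scale (adjusted p = 5.87e-07). Among 19 integrin chains, the receptors for such proteins, 4 were lower (21.1%) and 0 higher (1 at an unadjusted p under 0.05). The list median was -0.23. ITGA4, a receptor chain for fibronectin and VCAM1, fell from 19.9, 16.5 and 18.0 CPM to 9.51, 10.3 and 10.9 CPM (-0.83, adjusted p = 1.74e-08). ITGA6, a laminin receptor chain, had -0.33, ITGA9 had -1.09 and ITGA2 had -0.28, the last of them lost in 7 alternatives.

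Cadherins moved both ways. Of 39 tested, 7 were lower and 6 higher, which is 17.9% and 15.4% against 6.48% and 2.07% of all genes, with a median of -0.04. PCDH10 and PCDH17 rose, as given above, and so did FAT4, a giant cadherin of planar polarity (0.40, adjusted p = 1.47e-04). FAT3, its relative, fell from 45.8, 44.9 and 42.6 CPM to 34.4, 32.4 and 33.7 CPM (-0.41, adjusted p = 1.96e-06), and DSC3, a desmosomal cadherin, fell from 108, 105 and 112 CPM to 88.1, 87.4 and 84.5 CPM (-0.32, adjusted p = 1.29e-06).

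Of 35 teneurins, latrophilins and synaptic adhesion molecules, 12 were lower (34.3%) and 1 higher (2.86%), against 6.48% and 2.07% of all genes tested. The list median was -0.07. CNTNAP2, a neurexin-related protein of the axon, was at 44.5, 41.3 and 46.9 CPM in WT and 27.4, 23.8 and 27.6 CPM in A677G (log2 fold change -0.75, standard error 0.0615, adjusted p = 4.18e-11). CNTN1, or contactin 1, was at 22.7, 22.6 and 27.9 CPM in WT and 12.5, 13.4 and 13.6 CPM in A677G (-0.89, adjusted p = 1.65e-07). NCAM1, the neural cell adhesion molecule, had -0.51, and PTPRD, a receptor phosphatase of synapse formation, had -0.50. Every A677G sample was under every WT sample in CNTNAP2 and CNTN1. Of 44 genes of the synaptic vesicle and its release, 11 were lower and 1 higher (25% lower, median -0.21). RIMS4, of the active zone family, fell from 50.8, 50.6 and 50.4 CPM to 36.0, 37.6 and 39.9 CPM (-0.42, adjusted p = 2.11e-07). AMPH, or amphiphysin of endocytosis, SYT2 and SYT14, of the synaptotagmin family, and RAB3C, a vesicle GTPase, had log2 fold changes of -1.12, -1.18, -1.08 and -2.33.

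Channels showed the same direction. Of 66 voltage-gated and potassium channel genes, 12 were lower (18.2%) and 0 higher (1 at an unadjusted p under 0.05). The shares of all genes tested were 6.48% and 2.07%. The list median was -0.24, and 7 were lower without WT replicate 2. By kind, 11 of 44 potassium channels were lower (25%, median -0.30) and 0 of 13 calcium channels (2 at an unadjusted p under 0.05). Of 9 sodium channels, 1 was lower (11.1%), and this split was made after the values were seen. KCNK2, the leak channel TREK-1, was at 3.84, 3.29 and 2.81 CPM in WT and 0.606, 0.393 and 0.713 CPM in A677G (log2 fold change -2.54, adjusted p = 6.78e-09). KCND2 and KCNV1, voltage-gated subunits, were under 1 CPM in A677G, with log2 fold changes of -2.17 and -2.30. KCNG1, a modifying subunit, was more abundant, at 20.6, 24.6 and 23.1 CPM in WT and 18.3, 14.3 and 16.7 CPM in A677G (-0.47, adjusted p = 1.73e-04), and KCNK1 had -0.66.

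Axon guidance genes included both directions. Of 66 tested, 12 were lower (18.2%) and 6 higher (9.09%), against 6.48% and 2.07% of all genes tested. The list median was -0.06, and 7 were lower without A677G replicate 2. Among the ligands, NTN4, a netrin, was lower (-0.88, adjusted p = 1.60e-04) and SEMA3C, a semaphorin, was higher (0.41, adjusted p = 1.83e-04). Among the ephrin receptors, EPHA8 fell from 12.8, 12.04 and 13.2 CPM to 7.07, 7.40 and 7.87 CPM (-0.77, adjusted p = 2.17e-06) and EPHB2 from a mean of 21.8 to 15.9 CPM (-0.45), while EPHA7 rose from 94.8, 93.4 and 93.6 CPM to 113, 108 and 108 CPM (0.22, adjusted p = 3.15e-04).

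Receptors for growth factors and hormones were lower in several families. Of 29 receptor tyrosine kinases, 8 were lower (27.6%) and 0 higher (1 at an unadjusted p under 0.05). The shares of all genes tested were 6.48% and 2.07%. The list median was -0.12. EGFR was at 8.09, 8.70 and 8.60 CPM in WT and 5.21, 4.72 and 4.85 CPM in A677G (log2 fold change -0.78, adjusted p = 2.78e-05). FLT1 and FLT4, receptors of vascular endothelial growth factors, had -0.49 and -0.26. KIT, the stem cell factor receptor, had -0.35, and ERBB4, a neuregulin receptor, had -0.49. KDR, which is also the one endothelial marker listed, was under 1 CPM in both lines. Of 78 G protein-coupled receptors, 20 were lower and 2 higher (25.6% lower, median -0.19), and 13 were lower without WT replicate 1. ADGRG6, an adhesion receptor needed for myelination, was at 11.4, 7.71 and 9.77 CPM in WT and 4.44, 4.05 and 4.50 CPM in A677G (-1.15, adjusted p = 1.13e-07). EDNRB, an endothelin receptor, and NPY1R, a neuropeptide Y receptor, had -1.03 and -1.89. LPAR1, a receptor of lysophosphatidic acid, had -0.64, and GPR85, an orphan receptor, had -1.27.

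In the WNT pathway, 7 of 42 tested genes were lower (16.7%) and 0 higher (0 at an unadjusted p under 0.05), with a median of -0.09. They included a ligand, receptors, inhibitors and a nuclear factor. WNT11, a ligand, had a log2 fold change of -0.76, and ROR1, a coreceptor, -0.55. The secreted inhibitors SFRP1 and SFRP2 both fell, SFRP1 from 17.3, 19.5 and 16.2 CPM to 11.5, 10.1 and 11.4 CPM (-0.69, adjusted p = 3.05e-06) and SFRP2 from 5.57, 6.06 and 5.31 CPM to 1.75, 2.26 and 3.29 CPM (-1.23, adjusted p = 7.16e-06). LEF1, the transcription factor at the end of the pathway, fell from 36.7, 33.8 and 32.9 CPM to 27.2, 28.1 and 26.8 CPM (-0.33, adjusted p = 1.94e-04). Of 52 genes of TGF-beta and BMP signalling, 4 were lower (7.69%, near the 6.48% of all genes tested) and 3 higher (5.77%, against 2.07%, median -0.03). The ligand GDF6, the receptor ACVR1C and the inhibitor CHRDL1 were lower (-0.92, -0.73 and -1.28), while the receptor BMPR1A and the latent TGF-beta binding protein LTBP1 were higher (0.19 and 0.19).

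Of 26 interferon-stimulated genes tested, 6 were lower (23.1%) and 0 higher (1 at an unadjusted p under 0.05), with a median of -0.04. The shares of all genes tested were 6.48% and 2.07%. OAS3, a sensor of double-stranded RNA, was at 2.11, 2.43 and 2.75 CPM in WT and 0.561, 0.688 and 0.823 CPM in A677G (log2 fold change -1.82, adjusted p = 1.19e-05). HERC5, the ligase for ISG15, was the most abundant of those named, at 28.5, 29.9 and 28.7 CPM in WT and 23.5, 24.4 and 23.1 CPM in A677G (-0.29, adjusted p = 0.00228). SAMD9, DTX3L and IFIH1 had -1.36, -0.56 and -1.44.

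Of 84 ribosomal proteins, RPS27L alone passed the test, and of 38 complex I subunits and 20 enzymes that make or use NAD+, 0 passed it. At an unadjusted p under 0.05, 0 complex I subunits were lower and 1 higher, and 2 of the NAD+ enzymes were lower and 1 higher. Their medians were 0.03, 0.03 and 0.02, with PARP1 at -0.03, NAMPT at -0.02, NDUFS1 at 0.03 and NDUFB10 at -0.03. Of 42 glycolysis and TCA cycle enzymes, IDH2, mitochondrial isocitrate dehydrogenase, was higher (0.26, adjusted p = 5.67e-04), and PFKP and ENO2, a phosphofructokinase and the neuronal enolase, were lower (-0.19 and -0.55). The shares were 4.76% lower and 2.38% higher, against 6.48% and 2.07% of all genes tested. The call of ENO2 was lost without WT replicate 1 and without A677G replicate 2, which left 1 lower member. Of 7 carbonic anhydrases, 3 were lower (42.9%, against 6.48% of all genes tested). The study had already named CA2 and CA8 as lowered in its GOF lines, so this share was partly set in advance. CA2 fell from 120.4, 118 and 112 CPM to 103, 95.8 and 87.5 CPM (-0.29, adjusted p = 2.43e-04), with CA12 at -0.45 and CA8 at -0.35.

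Of 43 cell cycle genes, 3 were lower (6.98%) and 4 higher (9.30%), against 6.48% and 2.07% of all genes tested, with a median of 0.01. The higher members were 1 or 2 in 5 of the 6 fits that left out a sample (all but the one without A677G replicate 3). Beside CDKN1A, the kinase CDK6 was lower (-0.19, adjusted p = 0.00121), as were the cyclin CCND2 (-0.16, adjusted p = 0.00450) and RPRM, a G2 arrest protein (-1.15, adjusted p = 0.00400). PCNA, the replication clamp, was higher (0.14, adjusted p = 0.0298), which was lost in 7 alternatives. In the LOF line PCNA was also higher than in WT (0.18, adjusted p = 0.0443). Of 44 genes of the ATF4 response, 3 were lower and 2 higher, all by small amounts apart from the arginine transporter SLC7A3 (-0.56). These were 6.82% and 4.55% of the list, against 6.48% and 2.07% of all genes tested. The lower members were 0 without WT replicate 2 and 1 without WT replicate 1, A677G replicate 2 or A677G replicate 3. Without A677G replicate 1, none of the 3 lower members kept its call and 2 other genes of the list were lower. The higher members were 0 without WT replicate 2, A677G replicate 1 or A677G replicate 3 and 1 without WT replicate 1 or A677G replicate 2. Beside SLC7A3, the called members were SLC7A5 (-0.13), AARS (-0.12), SLC7A11 (0.15) and SESN2 (0.19), each lost in 4 to 10 alternatives. In 23 cholesterol genes, TM7SF2 was higher (0.25) and INSIG1 lower (-0.22), lost in 5 and 7 alternatives. Each direction held 4.35% of that list. Of 58 histone genes, HIST1H2AB and HIST3H2BB were lower (-0.17 and -0.14) and H1F0 was higher (0.15), each lost in 3. These were 3.45% and 1.72% of the list, below the shares of all genes tested. The libraries were made with an mRNA kit, and its recovery of histone transcripts was not tested. Of 220 solute carriers, 21 were lower (9.55%) and 8 higher (3.64%), against 6.48% and 2.07% of all genes tested. The lower carriers included SLC27A6, a fatty acid transporter (-1.87), SLC16A7 and SLC16A9, monocarboxylate transporters (-0.96 and -0.48), and SLC1A1, a glutamate transporter (-0.73). The higher carriers were 2 to 5 in the fits that left out any 1 of the 6 samples.

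**Figure D5:**
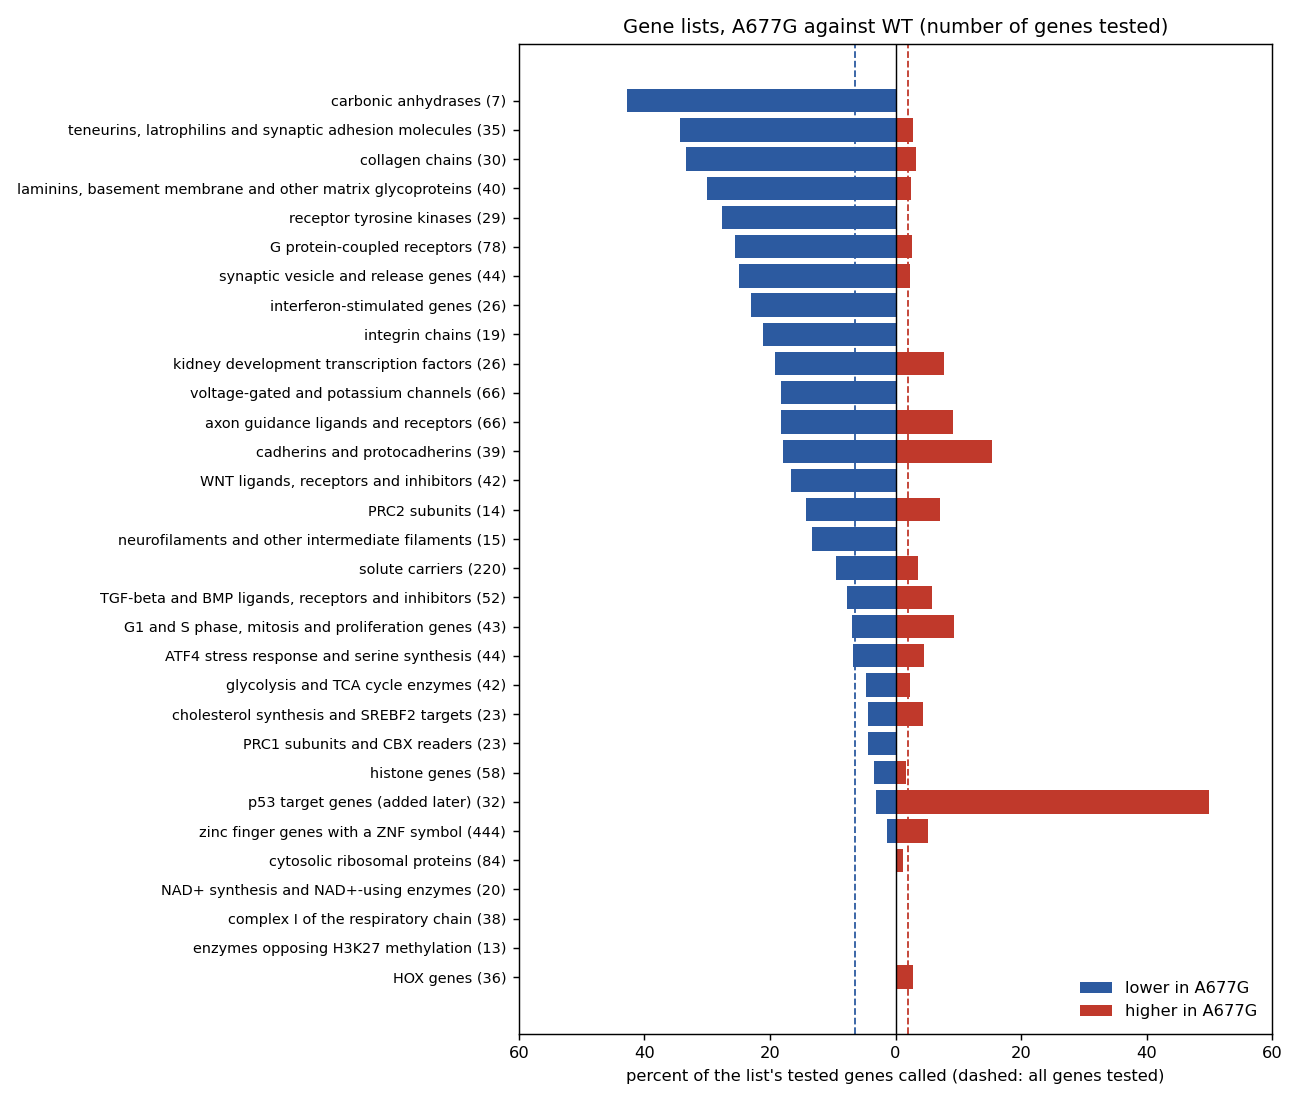
Percent of each list's tested genes that were lower (bars to the left) or higher (bars to the right) in A677G than in WT, with the number of genes tested in brackets and dashed lines at the 6.48% and 2.07% of all genes tested. Carbonic anhydrases (3 of 7), synaptic adhesion molecules (12 of 35) and collagens (10 of 30) reach farthest to the left, and the p53 list, which was added after the values were seen, reaches farthest to the right. The other lists were chosen with earlier results of these data known.

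Zinc finger genes, most of them transcriptional repressors of the KRAB class, leaned upward as a family. Of 444 with a ZNF symbol, 23 were higher (5.18% against 2.07% of all genes) and 6 lower (1.35% against 6.48%), with a median of 0.06. Without WT replicate 2 the higher members were 14, and without A677G replicate 2 they were 13. Part of them lie in a cluster of such genes on chromosome 19. Between 20 and 24 Mb, an interval set after the values were seen, 9 of 16 were higher and 0 lower (0 at an unadjusted p under 0.05, median 0.31), compared with 14 higher and 6 lower of the 428 elsewhere (median 0.06). ZNF711, on the X chromosome, had the smallest p of the family, at 77.3, 81.7 and 82.1 CPM in WT and 99.6, 99.0 and 97.7 CPM in A677G (log2 fold change 0.30, adjusted p = 3.87e-06). ZNF681, in the cluster, was at 4.55, 5.25 and 5.25 CPM in WT and 7.54, 8.85 and 8.67 CPM in A677G (0.73, adjusted p = 7.75e-05). ZNF365, which in spite of its symbol encodes a centrosomal protein, was lower (-2.01, adjusted p = 5.66e-06).

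The changed genes shared features of length and level that the test did not use as such. Lower genes spanned a median of 79.4 kb of the genome and higher genes 61.8 kb, against 33.0 kb for all genes tested. Lower genes had a median level of 9.51 CPM in WT, higher genes 44.7 CPM and all genes 24.5 CPM. In 5 equal groups by expression, from the lowest to the highest, 8.90%, 12.2%, 6.55%, 2.84% and 1.93% of genes were lower. A promoter rich in CpG, with at least 55% GC and an observed to expected CpG ratio of at least 0.6 in the window of 300 bases at the canonical start, was found for 81.7% of the lower genes, 81.0% of the higher genes and 78.7% of all, and for 69.7% of the genes that fell by 1 or more on the log2 scale. Detection depends on level and length, so these shares are a description. The shares of the gene lists were set against all genes tested without matching for level or length. By chromosome, the share of lower genes ran from 1.15% on chromosome 19 to 11.5% on the X chromosome, while the median log2 fold change stayed between -0.03 and 0.04 on each. Of 634 lncRNA genes, 14 were lower (2.21%) and 4 higher (0.631%), both below the 6.48% and 2.07% of all genes tested.

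Set directly against the LOF line in the same fit, A677G had 1093 genes lower (7.66%) and 377 higher (2.64%). These tests share the A677G samples with the comparison against WT. SPON1 was at 20.5, 21.6 and 22.5 CPM in the LOF line, and A677G was lower (log2 fold change -1.40, adjusted p = 2.62e-13). DPYSL3 was at 54.4, 55.8 and 55.6 CPM there (-0.62, adjusted p = 1.91e-11), and PCDH10 at 46.3, 43.8 and 46.7 CPM, where A677G was higher (0.59, adjusted p = 1.91e-11). In SPON1 the LOF and WT samples overlapped, and in DPYSL3 the LOF samples lay between those of A677G and WT. CDKN1A was at 24.5, 23.5 and 26.1 CPM in the LOF line, and A677G was above it by 0.48 on the log2 scale (adjusted p = 6.99e-05). Among the lists, 11 of 30 collagens, 9 of 35 synaptic adhesion molecules and 17 of 44 synaptic vesicle genes were lower in A677G than in the LOF line. These 3 lists were picked from many, and the share over all genes was 7.66%. Other lists differed, with 0 of 36 HOX genes and 2 of 26 kidney factors lower. In the zinc finger cluster of chromosome 19, 8 of 16 genes were higher, against 2.64% of all genes.

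Against Y641F, the other GOF line, 12 genes were called in A677G (0.0841%), of which 10 were lower (0.0701%) and 2 higher (0.014%). A test that is not passed does not show that the lines were alike, and the values of the falls are given side by side. CCDC68 was at 1.76, 1.42 and 3.12 CPM in Y641F and 1.37, 1.47 and 1.23 CPM in A677G, a log2 fold change of -0.63 (standard error 0.229, adjusted p = 0.568). SPON1 was at 10.7, 8.85 and 8.37 CPM in Y641F, with -0.19 (standard error 0.0954, adjusted p = 0.736). In both genes the Y641F and A677G samples overlapped. CDKN1A was at 23.2, 30.6 and 28.3 CPM in Y641F, below the A677G samples, with 0.33 (standard error 0.0807, adjusted p = 0.141). NEFM was called, at 143, 107 and 128 CPM in Y641F and 99.2, 81.2 and 92.6 CPM in A677G (-0.47, standard error 0.0638, adjusted p = 4.75e-05), and so was FAT3, at 27.8, 25.8 and 25.8 CPM in Y641F, where A677G was the higher line (0.34, standard error 0.0569, adjusted p = 0.00193).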

How the data were processed

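RNA was sequenced from the 4 HEK293T lines, with 3 samples each. According to the labels and the study's methods, libraries were made with the TruSeq Stranded mRNA kit, reads were trimmed with Trim Galore 0.6.5 and aligned to GRCh38 with STAR 2.7.9a, and transcripts were estimated with Salmon 1.2.0. The table that the authors deposited holds raw counts, whole numbers per gene symbol that were not normalized. The step from Salmon estimates to these counts, the handling of strand and of shared reads, and the filter that left 14438 genes are not given in the sources used here. Every column of the table was used.

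The analysis used edgeR 4.0.16 in R 4.3.3. Samples were grouped by the line in their labels. Genes at 0 in all samples of a line were left out, TMM factors were computed, and the quasi-likelihood model was fitted to all 12 samples with a coefficient per line. The 14263 genes left all passed filterByExpr, so the alternative without a filter on low counts repeated the main fit. Benjamini-Hochberg adjustment was made over these genes, and those with an adjusted p under 0.05 were called lower or higher. Standard errors are the log2 fold change divided by the square root of the F statistic. The exact test of edgeR, named in the study's methods, is among the alternatives. The CPM are TMM-normalized, apart from the WT levels of the genes at 0 in A677G, and mean log2 CPM used a prior count of 2. The common biological coefficient of variation was 0.0471, and totals ran from 32137700 to 44562413 counts. Chi-square statistics per degree of freedom between replicates of 3.33 to 7.13 showed that no 2 samples of WT or A677G held the same library.

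Symbols were matched to GENCODE 44 on GRCh38, 13272 by name and 810 through a RefSeq synonym, while 356 had no match. CpG content was computed in 300 bases around the canonical transcript start (250 before and 50 after). Printed promoters are RefSeq's.

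Named genes were EZH2, the 15 largest falls and rises and the 5 smallest p in each direction among called genes whose mean log2 CPM was 1 or more and whose lines did not overlap, up to 5 called members of each list by p (where 0 were called, the 2 most abundant), and the genes called against Y641F. The 4 higher genes past the fold limit, VIM, PAX2 and other markers were named beside them. The results of some genes under these rules are not reported here. The genes compared, the 30 gene lists and the marker lists were chosen with earlier results of these data known, and the p53 list was added after the counts were seen. Each result was recomputed with edgeR's exact test, DESeq2 1.42.0, limma 3.58.1 voom, other scaling factors, other filters, the compared lines alone, a replicate block, GC trends removed, thinned counts, a fold limit and each sample left out. The procedure was tested on simulated counts.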

Additional observations from a re-analysis of the deposited data

Results flagged for a closer look

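The 12 genes below were picked out because A677G and Y641F, both compared with WT, differed from each other in a direct test of that difference over all 14263 genes (0.0841% of them). EZH2 was lower in A677G, with a log2 fold change of -0.33 (adjusted p = 9.34e-06). Of genes lower in A677G than in WT, NEFM and NELL2, a secreted neural protein, were lower still than in Y641F, with -0.47 and -0.42 (adjusted p = 4.75e-05 and 0.0174). NELL2 was at 22.9, 21.6 and 21.7 CPM in WT, 20.3, 17.2 and 17.0 CPM in Y641F and 12.5, 13.5 and 14.8 CPM in A677G. L3MBTL4, a malignant brain tumour domain protein, had -1.34 (adjusted p = 0.0444), at 2.35, 2.10 and 1.39 CPM in WT, 1.85, 1.39 and 1.37 CPM in Y641F and 0.718, 0.393 and 0.713 CPM in A677G. GNG4, a G protein gamma subunit, had -0.44 (adjusted p = 0.00311), and MIR17HG, the host of the miR-17-92 cluster, had -0.31 (adjusted p = 0.00219). FAT3 and CYFIP2, a WAVE complex protein, were higher in A677G than in Y641F, with 0.34 and 0.24 (adjusted p = 0.00193 and 0.0255).

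EMILIN2, a matrix glycoprotein, and POLR2A, the large subunit of RNA polymerase II, had -0.56 and -0.29 (adjusted p = 2.95e-05 and 0.00755) and did not pass the test between A677G and WT. EMILIN2 was at 21.3, 25.7 and 23.8 CPM in WT, 27.9, 22.8 and 24.3 CPM in A677G and 40.0, 35.8 and 35.0 CPM in Y641F. The ribosomal RNA entries RNA45S5 and RNA28S5 had -0.65 and -0.75 (adjusted p = 6.48e-05 and 0.00193). The libraries were made with an mRNA kit, and how much ribosomal RNA it carried over was not tested. RNA45S5 was at 448, 522 and 385 CPM in WT, 352, 365 and 338 CPM in A677G and 503, 656 and 494 CPM in Y641F, and RNA28S5 was at 283, 342 and 270.1, 356, 334 and 337 and 444, 761 and 523 CPM in the same order.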

How the results depend on the processing

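The 924 lower and 295 higher genes became 1073 and 355 with edgeR's exact test, 951 and 335 with DESeq2 and 916 and 294 with limma voom. Beyond 1.5 times, the number of higher genes moved to 191 with upper-quartile factors, to 497 with the WT and A677G samples alone in the fit, and to 4 with a log2 fold change of at least 1, which left 202 lower genes. The share of changed genes that were lower was 75.8%. It was 84.3% with upper-quartile factors, 80.1% with library totals, 78.4% with at least 10 counts in every sample, 78.5% with thinned counts, 69.3% with WT and A677G alone and 98.1% with the fold limit. With each sample left out in turn, 682 to 812 genes were lower and 142 to 230 higher, and the share was 77.9% to 82.8%. Keeping the genes at 0 gave 1082 lower and 312 higher. Samples of WT and A677G with the same replicate number did not deviate together (correlations of -0.042, -0.049 and -0.056), and a replicate block gave 933 lower and 305 higher, or 988 and 320 with GC trends removed as well. Of 149 named genes, 140 were called, 108 of them in every alternative beside the fold limit that tested them. Of these 108, KCND2, KCNV1, RAB3C and GPR50 were tested in 18 of the 19 alternatives. The other 32 called genes were lost in at least 1, and 0 of the called genes reversed. Of those not called, NAMPT, at -0.02, ran from -0.067 without WT replicate 1 to 0.0066 without WT replicate 3, and was 0.00087 without A677G replicate 3, while EMILIN2, at 0.08, ran from -0.0037 without A677G replicate 1 to 0.15 without WT replicate 2. The cause was not tested. In lists with 0 calls in a direction, the exact test added 1 higher PRC1 gene, 1 higher receptor tyrosine kinase and 1 lower NAD+ enzyme, and DESeq2 and limma voom added 0. Small changes in genes of low counts were not detectable at this depth.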
